A study of Rattus norvegicus with 12 samples.

Results

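The 73 genes described here encode proteins of the cytosolic ribosome. They are the rows of the count table whose symbol is that of a large subunit protein (Rpl), a small subunit protein (Rps), an acidic stalk protein (Rplp) or Rpsa, with S6 kinase genes and pseudogene symbols left out. The rule used names alone, and it took 73 of 33294 rows, of which 29 encode small subunit proteins, 41 large subunit proteins and 3 stalk proteins. All 73 passed the filter on low counts and were among the 18438 genes tested. Rps9, Rps19, Rpl35a and Rpl37a were not analysed here.

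The cells were PAC1, a smooth muscle line from rat pulmonary artery, kept in medium with serum under the splitting regime for the more differentiated state. Each of 4 groups held 3 libraries of poly(A)-selected RNA, and all cells received 90 pmol siRNA in a reverse transfection and again after 24 h. Per the labels they were harvested 48 h after the second dose, whereas the study's methods give longer intervals for its knockdowns. The control group received the negative control siRNA C2, and the other groups received siRNA against RBPMS, RBFOX2 or QKI (gene symbol Qk), RNA-binding proteins that regulate splicing. The model is thus 1 cell line, nothing in the labels ties the 3 libraries of a group to separate cultures, and p-values measure the spread between these libraries.

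A ribosome holds 1 copy of most of its proteins, and the mRNAs for these proteins are among the most heavily translated in growing cells. These mRNAs begin with a 5′ terminal oligopyrimidine (TOP) tract, a run of C and T right at the start of transcription, through which the growth regulator mTOR and the RNA-binding protein LARP1 control their translation and stability. Proteins of the subunits are assembled with ribosomal RNA in the nucleolus, and unassembled copies are degraded.

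RefSeq promoter sequences of the assembly GRCr8 were matched by symbol for 58 of the 73 members, and 15 were without an entry in the table used. The windows printed here run from 15 bases before to 15 bases after the annotated start of transcription, 5′ to 3′ on the gene's own strand. They are shown for the members with large changes below and for Rpl10, an example of a long tract at the annotated start. Capitals mark the longest unbroken run of C and T inside each printed window of 30 bases.
Rplp2, chr1:205975906-205975935, plus strand: CCTTTCgccgccggacgccgccgaggtcgc
Rpl12, chr3:36661925-36661954, plus strand: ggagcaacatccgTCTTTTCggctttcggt
Rps12, chr1:23500060-23500089, plus strand: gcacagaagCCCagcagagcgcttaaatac
Rps6, chr5:106420526-106420555, minus strand: gacgCCTCCTaggcggtcggctgtgtcaag
Rpl19, chr10:83519049-83519078, plus strand: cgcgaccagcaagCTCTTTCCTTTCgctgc
Rpl10, chrX:157205835-157205864, plus strand: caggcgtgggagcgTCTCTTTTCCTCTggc
Rpl39, chrX:121195882-121195911, minus strand: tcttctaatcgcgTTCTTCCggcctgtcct
Rpl7a, chr3:30637121-30637150, plus strand: CTCTCCTCCagccgagcaagatggtgagtg
Rpl36a, chrX:102059434-102059463, plus strand: ccgcctataaaCTTCCgttgctgctctagc

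Most of the matched members held a run of C and T near the annotated start. Within 20 bases on either side of the annotated start, 42 of 58 members (72.4%) held a run of at least 8 bases of C and T on the sense strand, against 15.5% of all 33469 promoters in the table. The longest run had a median length of 10 bases in members and 5 bases in all promoters. The letters CTTTCC stood in that window in 27.6% of members and 1.73% of all promoters, and CTCTTT in 25.9% and 1.61%, where the 2 words can overlap in 1 tract. Over the 300 bases on both strands, CCGGAA, the core bound by ETS factors, was present in 55.2% of members and 15% of all promoters, and AAGATGG, a word bound by YY1, in 15.5% and 7.01%. These are matches of letters around annotated starts and say nothing of binding. A run counted here can end before the start, as those printed for Rpl7a and Rplp2 do. The counts thus do not say which mRNAs begin with a TOP tract.

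Depth was high and even enough to measure every member. Libraries held 110595399 to 151665474 counts, and single members had 198 to 214625 counts in a library. Each siRNA lowered its target. Rbpms fell from 40.7 ± 2.60 to 7.21 ± 0.301 CPM (SD, n = 3), the count relative to the library total after adjustment by the TMM method, Rbfox2 from 154 ± 4.37 to 37.3 ± 0.943 and Qk from 233 ± 7.04 to 26.6 ± 0.649. These genes also changed where they were not the target. Rbpms was 23.1 ± 1.90 CPM after RBFOX2 knockdown and 29.0 ± 0.957 after QKI knockdown, log2 fold changes of -0.81 and -0.49. Qk gave -0.42 after RBFOX2 knockdown and 0.18 after RBPMS knockdown (0.21 without RBPMS knockdown replicate 2). Rbfox2 gave -0.15 after QKI knockdown and -0.12 after RBPMS knockdown (-0.07 without that library). The smooth muscle identity of the line was visible in the sum of 7 markers, 3344 to 3486 CPM in control libraries. The sums were 8.54 to 10.6 CPM for 5 endothelial markers, 1.71 to 2.01 for 4 leukocyte markers and 28.9 to 31.4 for 4 epithelial markers, nearly all of it Krt8. Myl9, Cald1, Tagln, Tpm2 and Acta2 had TMM-scaled control means of 303 to 990 CPM. Myh11 and Cnn1 had only 6.48 and 6.43, close to the endothelial Cdh5 at 6.77. The study reports that differentiated cells in its experiment with these knockdowns were less differentiated than in its other experiment. The smooth muscle sum was 1808 to 1977 CPM after RBPMS knockdown, 1680 to 1811 after RBFOX2 knockdown and 2129 to 2260 after QKI knockdown. The 7 markers did not all move alike. After RBPMS, RBFOX2 and QKI knockdown 6, 6 and 5 of them were lower past the test, while Myh11 was higher in each. Myh11 gave 0.34 (0.39 without RBPMS knockdown replicate 2), 1.05 and 0.19 on the log2 scale. Tagln gave 0.03 after QKI knockdown, which did not pass. The epithelial sum reached 73.6 to 75.5 CPM after RBFOX2 knockdown, where Krt8 had a mean of 74.1. The leukocyte sum reached 6.37 to 6.65 CPM after QKI knockdown, where Csf1r had a mean of 3.79. No marker of any list was at 0 in all libraries. The part of these shifts in the members' changes was not tested. In bulk RNA, fewer cells of a type and less RNA per cell cannot be told apart.

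A single library stood apart, in these genes and beyond them. In RBPMS knockdown replicate 2 all 73 members lay above the mean of their group, by a median of 0.18 on the log2 scale, while the other libraries of that group had medians of -0.09 and -0.09. The median over all genes in that library was 0.01, that of mitochondrial ribosomal proteins 0.13 that of translation factors and other TOP mRNAs 0.11 and that of ribosome assembly factors 0.07. The chi-square per degree of freedom over the members was 626 and 630 between this library and its partners, against 7.67 to 48.2 in the other pairs of replicates, and over all genes it was 57.8 and 45.6 against 4.64 to 21.5. What set it apart was not tested, and results on the RBPMS knockdown are also given without it, as values without replicate 2.

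Knockdown of RBPMS raised and knockdown of RBFOX2 lowered the share of RNA that came from these genes. Members took 2.06, 2.02 and 2.01% of all counts in the control libraries, a mean of 2.03% ± 0.0269 (SD, n = 3). After RBPMS knockdown the shares were 2.15, 2.55 and 2.15%, and each was above the highest control library. After RBFOX2 knockdown they were 1.75, 1.77 and 1.75%, all below the lowest control library. QKI knockdown gave 2.07, 2.02 and 1.97%, which overlapped the control.

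**Figure D1:**
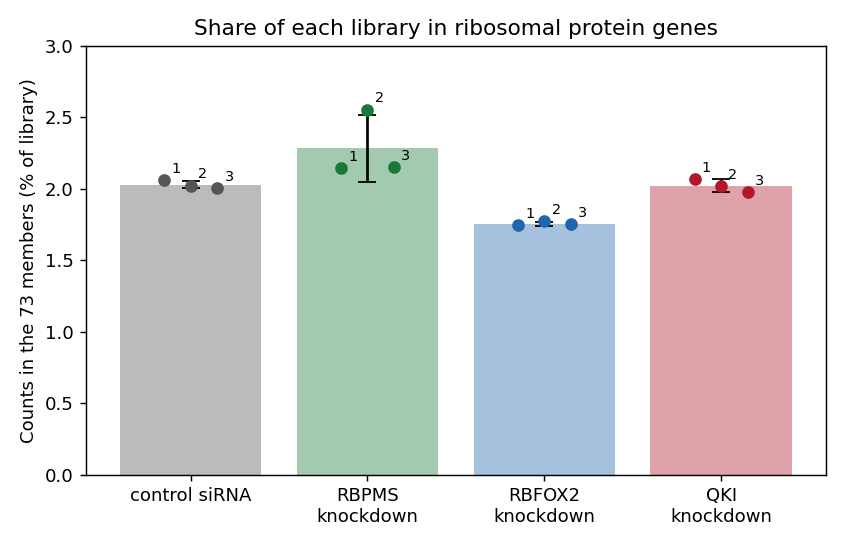
Share of each library's counts that fell in the 73 members (y axis, percent). Points are libraries with their replicate number, bars are group means and error bars the SD of 3 libraries; the RBFOX2 knockdown libraries lie at 1.75 to 1.77%, below every other library, and RBPMS knockdown replicate 2 reaches 2.55%.

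The difference from control was 0.254 percentage points for RBPMS knockdown, -0.273 for RBFOX2 knockdown and -0.00799 for QKI knockdown. Exact two-sided permutation tests gave p = 0.1, 0.1 and 0.9, where 0.1 is the smallest value that 3 libraries against 3 allow. Without RBPMS knockdown replicate 2 the RBPMS difference was 0.119 points. The 5 members with most counts contributed to the RBFOX2 difference, which was -0.202 without them.

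After RBPMS knockdown 58 of 73 members were higher than control and 0 were lower at an adjusted p under 0.05, with a median log2 fold change of 0.25 and a range of -0.11 to 0.66. Of all genes tested, 30.4% were higher and 29.0% lower in that comparison, and their median was 0.01. Both subunits took part, with 23 of 29 small subunit genes, 33 of 41 large subunit genes and 2 of 3 stalk genes higher (20, 32 and 1 without replicate 2). Without replicate 2, 53 members were higher and 2 lower (Rpl19 and Rps27a) against 29.0% higher and 28.6% lower of all genes, and the median was 0.15.

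After RBFOX2 knockdown 53 of 73 members were lower and 0 higher, with a median of -0.23 and a range of -0.77 to 0.14, against 30.1% lower and 30.1% higher of all genes, with a median of 0.01. Lower values passed the test for 21 small subunit, 29 large subunit and all 3 stalk genes. Scaling by library totals alone left 42 lower and 0 higher, and it left 53 higher and 0 lower after RBPMS knockdown. The shares of all genes called under that scaling are not given for these comparisons, and the shares above do not stand in for them.

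QKI knockdown moved members both ways. Here 21 were higher, 18 lower and 34 did not pass the test, against 32.9% higher and 34.0% lower of all genes. The median was 0.01, as it was over all genes, and the range was -0.83 to 0.93. The shares of members called in each direction were near those of all genes. How the calls divided depended on the scaling, because scaling by library totals alone gave 33 higher and 9 lower, against 38.7% higher and 29.4% lower of all genes. The SD of the log2 fold changes over the 73 members was 0.31 after QKI knockdown, 0.15 after RBPMS knockdown with or without replicate 2, and 0.17 after RBFOX2 knockdown.

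**Figure D2:**
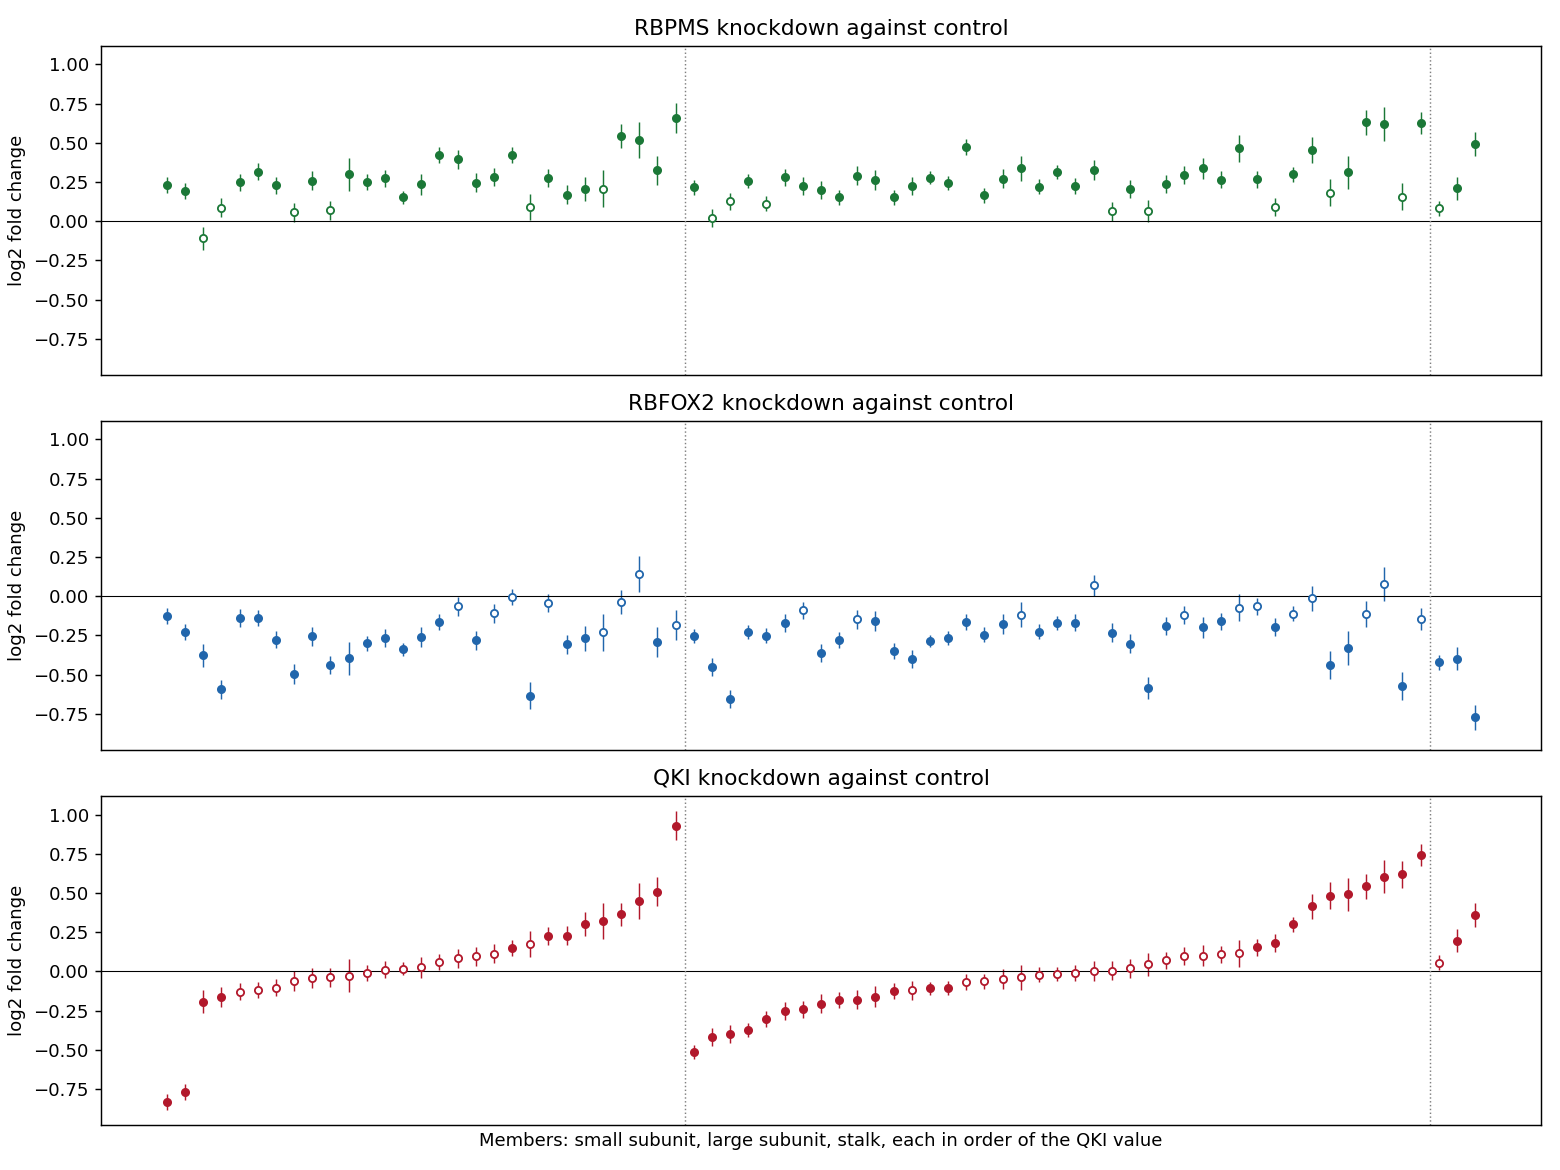
Log2 fold change against control (y axis) of each of the 73 members (x axis, in order of the QKI value within each class) in the 3 knockdowns, with standard errors; filled points passed an adjusted p under 0.05, and dotted lines divide small subunit, large subunit and stalk genes. All but 1 of the RBPMS values are above 0 (all but 9 without replicate 2, not drawn), 70 of the RBFOX2 values are below 0, and the QKI values run from -0.83 (Rps6) to 0.93 (Rps20).

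No member passed the study's own limit of an absolute log2 fold change above 1 in any comparison with control. That limit was passed by 9.66% of all genes after RBPMS knockdown, by 11.7% after RBFOX2 knockdown and by 17.5% after QKI knockdown.

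The knockdowns were also compared with each other, with no control library in the contrast. All 73 members were lower after RBFOX2 than after RBPMS knockdown, with a median of -0.49, against 28.8% lower and 27.9% higher of all genes. Without RBPMS knockdown replicate 2, 72 were lower and 0 higher, against 27.9% lower of all genes, and the median was -0.39. Rplp2 alone passed a log2 fold change of 1 in that contrast, at -1.26 and also without replicate 2 (-1.14), a limit passed by 7.52% of all genes.

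QKI knockdown was compared with the other knockdowns in the same way. Against RBPMS knockdown 47 members were lower and 3 higher (Rps20, Rpl22 and Rpl39), against 32.0% lower and 29.0% higher of all genes. Rps6 alone passed the limit of 1, at -1.07, as did 12.2% of all genes, and no member passed it without RBPMS knockdown replicate 2, where the lowest value was -0.98. Without that library the split was 41 lower and 12 higher, against 31.1% lower and 28.9% higher of all genes. Against RBFOX2 knockdown 55 members were higher and 5 lower, among them Rps6, Rpl15, Rpl24 and Rpl3, against 33.5% higher and 35.0% lower of all genes. Rpl39 at 1.19, Rplp2 at 1.13 and Rps20 at 1.11 passed the limit of 1, which 18.4% of all genes passed.

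The stalk is the flexible arm of the large subunit that recruits elongation factors, and all of its genes fell after RBFOX2 knockdown. Rplp2 measured 20.7, 20.5 and 18.8 CPM in control libraries, 24.8, 32.7 and 26.8 after RBPMS knockdown, 12.4, 11.5 and 11.3 after RBFOX2 knockdown and 25.7, 25.9 and 25.3 after QKI knockdown. The RBFOX2 libraries lay far below the control and both other knockdowns lay above it, with no overlap. Its log2 fold change was -0.77 ± 0.08 (SE) after RBFOX2 knockdown (edgeR adjusted p = 1.82e-07), 0.49 ± 0.08 after RBPMS knockdown and 0.36 ± 0.08 after QKI knockdown (edgeR adjusted p = 2.69e-05 and 5.16e-04). Without RBPMS knockdown replicate 2 the RBPMS value was 0.36.

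Rplp0, the protein that anchors the stalk to the ribosome, had 1323, 1329 and 1312 CPM in control and 980, 1008 and 973 after RBFOX2 knockdown, a log2 fold change of -0.42 ± 0.05 (edgeR adjusted p = 9.50e-07). It did not pass the test after RBPMS knockdown (0.08, or 0.00 without replicate 2) or QKI knockdown (0.06). Rplp1, the partner of Rplp2 in the stalk dimer, had 227, 225 and 220 CPM in control and 176, 168 and 166 after RBFOX2 knockdown (-0.40 ± 0.07, edgeR adjusted p = 1.63e-04). In the RBPMS knockdown it was 234, 308 and 236 CPM, and its call there (0.21, edgeR adjusted p = 0.0198) was lost without replicate 2 (0.07, edgeR adjusted p = 0.0725), without control replicate 3 and under library totals. Rplp1 after QKI knockdown (0.20, edgeR adjusted p = 0.0265) lost its call without any of 5 of the 6 libraries compared, QKI knockdown replicate 3 being the exception.

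Rpl12 sits at the base of the stalk. It had 183, 179 and 177 CPM in control, 182, 223 and 184 after RBPMS knockdown, 112, 114 and 117 after RBFOX2 knockdown and 139, 136 and 135 after QKI knockdown. RBFOX2 and QKI libraries were below every control library, and the RBPMS libraries overlapped the control range. The log2 fold changes were -0.66 ± 0.06 for RBFOX2 knockdown and -0.40 ± 0.06 for QKI knockdown (edgeR adjusted p = 2.05e-08 and 6.76e-06), and 0.13 for RBPMS knockdown (edgeR adjusted p = 0.0593), or 0.03 without replicate 2.

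Among small subunit genes, Rps29 and Rps12 had the largest falls after RBFOX2 knockdown. Rps29, a small zinc-binding protein, had 27.9, 32.1 and 30.5 CPM in control and 20.8, 18.7 and 18.8 after RBFOX2 knockdown, a log2 fold change of -0.63 ± 0.09 (edgeR adjusted p = 5.73e-06). Rps12 had 18.0, 18.4 and 17.7 CPM in control, 12.3, 11.5 and 12.1 after RBFOX2 knockdown and 16.4, 16.6 and 15.2 after QKI knockdown. It fell by 0.59 on the log2 scale after RBFOX2 knockdown (edgeR adjusted p = 3.35e-07) and by 0.17 after QKI knockdown (adjusted p = 0.0276), and in both the libraries did not overlap the control. Among the start windows printed, that of Rps12 holds no pyrimidine run longer than 3 bases, whereas that of Rpl12 holds a run of 7. The run of Rplp2 is longer than printed, with 10 bases inside the window of 20 bases on either side. It extends upstream and ends before the annotated start.

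**Figure D3:**
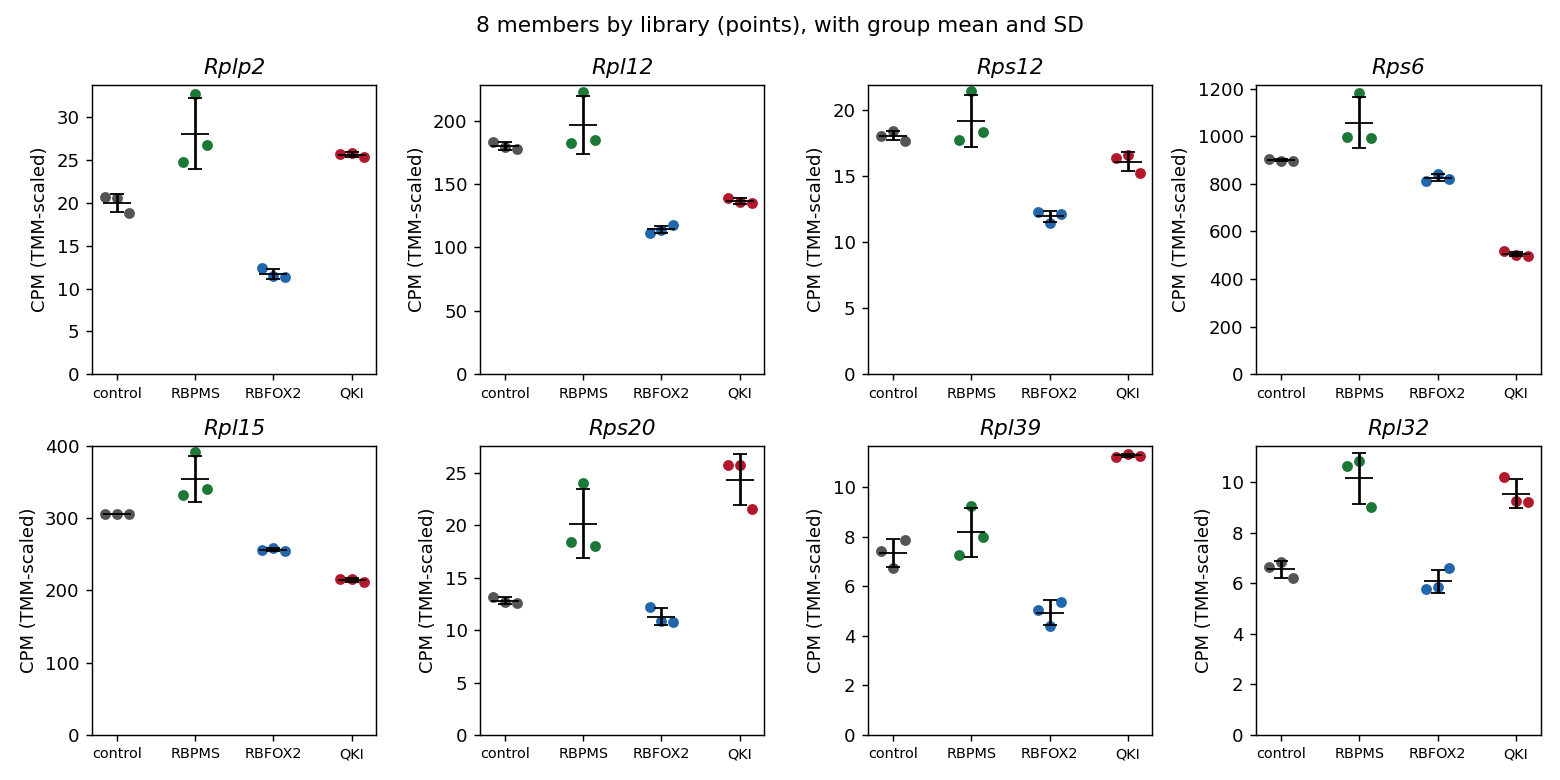
Level of 8 members in each library (y axis, TMM-scaled CPM, from 0) in control, RBPMS, RBFOX2 and QKI knockdown (x axis); points are libraries, horizontal marks are means and error bars the SD of 3. Rplp2, Rpl12, Rps12 and Rpl39 are lowest after RBFOX2 knockdown, Rps6 and Rpl15 are lowest after QKI knockdown, and RBPMS knockdown replicate 2 is the high point of its group in each panel.

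The members that fell after QKI knockdown were led by Rps6. This protein of the small subunit is the classic substrate of the S6 kinases. Control libraries had 905, 897 and 895 CPM of Rps6, the RBPMS knockdown 996, 1181 and 994, the RBFOX2 knockdown 813, 841 and 822, and the QKI knockdown 516, 499 and 498. Each group was separate from the others, and QKI knockdown was the lowest. The fall against control was -0.83 ± 0.05 on the log2 scale (edgeR adjusted p = 1.23e-10), while RBPMS knockdown gave 0.23 ± 0.05 (0.14 without replicate 2; edgeR adjusted p = 6.58e-04 and 4.68e-05). After RBFOX2 knockdown Rps6 gave -0.12 (edgeR adjusted p = 0.0414), a call lost without any of 5 of the 6 libraries compared (all but RBFOX2 knockdown replicate 2) and a value of 0.00 in the authors' normalised table.

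Rpl15, a protein of the large subunit core, fell from 305, 305 and 306 CPM in control to 216, 215 and 211 after QKI knockdown (-0.51 ± 0.05, edgeR adjusted p = 2.45e-08) and to 255, 259 and 255 after RBFOX2 knockdown (-0.25 ± 0.05). Its RBPMS libraries, at 332, 391 and 341 CPM, were all above the control (0.22, or 0.14 without replicate 2).

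Rpl19, which forms a bridge to the small subunit, was not raised by RBPMS knockdown. It had 899, 874 and 868 CPM in control, 671, 653 and 652 after QKI knockdown and 642, 649 and 639 after RBFOX2 knockdown. Both knockdowns lay below all control libraries, at -0.42 ± 0.06 and -0.45 ± 0.06 (edgeR adjusted p = 4.19e-06 and 2.21e-06). RBPMS knockdown gave 822, 1018 and 842 CPM, 2 libraries below and 1 above the control, and a change of 0.02 (edgeR adjusted p = 0.758). Without replicate 2 that change was -0.08 (edgeR adjusted p = 0.00866). Its printed window holds a run of 12 bases of C and T that begins 2 bases before the annotated start.

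Rps20 had the highest fold change of all members after QKI knockdown. It was also the highest after RBPMS knockdown, but behind Rpl32 and Rpl7a without replicate 2. This protein of the small subunit head had 13.2, 12.6 and 12.6 CPM in control, 18.5, 24.0 and 18.1 after RBPMS knockdown, 12.2, 10.9 and 10.7 after RBFOX2 knockdown and 25.8, 25.8 and 21.6 after QKI knockdown. RBPMS and QKI libraries were all above the control and RBFOX2 libraries below it, but the RBFOX2 change of -0.18 did not pass the test (edgeR adjusted p = 0.11). The log2 fold changes were 0.93 ± 0.09 for QKI knockdown and 0.66 ± 0.09 for RBPMS knockdown (edgeR adjusted p = 1.15e-07 and 1.11e-05), the latter 0.51 without replicate 2. The QKI value passed 1 under library totals, in the normalised table and without QKI knockdown replicate 3.

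Rpl7a, a core protein of the large subunit, had 7.32, 6.94 and 7.81 CPM in control, 10.9, 12.3 and 10.8 after RBPMS knockdown and 12.05, 12.82 and 11.98 after QKI knockdown. These were 0.63 ± 0.07 and 0.74 ± 0.07 on the log2 scale (edgeR adjusted p = 7.47e-07 and 5.57e-08), with 0.56 for RBPMS knockdown without replicate 2. Rpl36a had 3.23, 3.26 and 3.23 CPM in control, 4.83, 5.85 and 4.21 after RBPMS knockdown and 4.68, 4.95 and 5.13 after QKI knockdown. That gave 0.62 ± 0.11 and 0.60 ± 0.11, with 0.48 for RBPMS knockdown without replicate 2. RBFOX2 libraries overlapped the control in Rpl7a and Rpl36a.

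Rpl32 was among the leaders after RBPMS knockdown, with 6.63, 6.86 and 6.20 CPM in control and 10.6, 10.9 and 9.01 in the knockdown. Its change of 0.63 ± 0.08 (edgeR adjusted p = 2.39e-06) was 0.58 without replicate 2. In the QKI knockdown it had 10.2, 9.26 and 9.22 CPM, a change of 0.54 ± 0.08. Rpl39, the small protein that lines the exit tunnel, rose after QKI knockdown and fell after RBFOX2 knockdown. It had 7.43, 6.74 and 7.87 CPM in control, 11.2, 11.3 and 11.3 after QKI knockdown and 5.05, 4.39 and 5.38 after RBFOX2 knockdown, which gave 0.62 ± 0.09 and -0.57 ± 0.09 (edgeR adjusted p = 6.23e-06 and 2.97e-05). The RBPMS value of 0.16, or 0.06 without replicate 2, did not pass the test.

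Counting depth divided the members after QKI knockdown. At a mean of 50 CPM, a limit chosen after the values were seen, 23 members lay below and 50 at or above it. Below it 14 were higher and 2 lower after QKI knockdown, with a median of 0.36, and at or above it 7 were higher and 16 lower, with a median of -0.03, against 32.9% higher and 34.0% lower of all genes. After RBPMS knockdown the medians were 0.33 and 0.23 (0.26 and 0.14 without replicate 2). For RBFOX2 knockdown the median was -0.23 in both classes. There 11 of 23 and 42 of 50 members passed the test as lower, against 30.1% of all genes. CPM is not corrected for transcript length, so these classes sort members by counting depth and not by RNA level, and what sets the depth of a member was not tested.

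**Figure D4:**
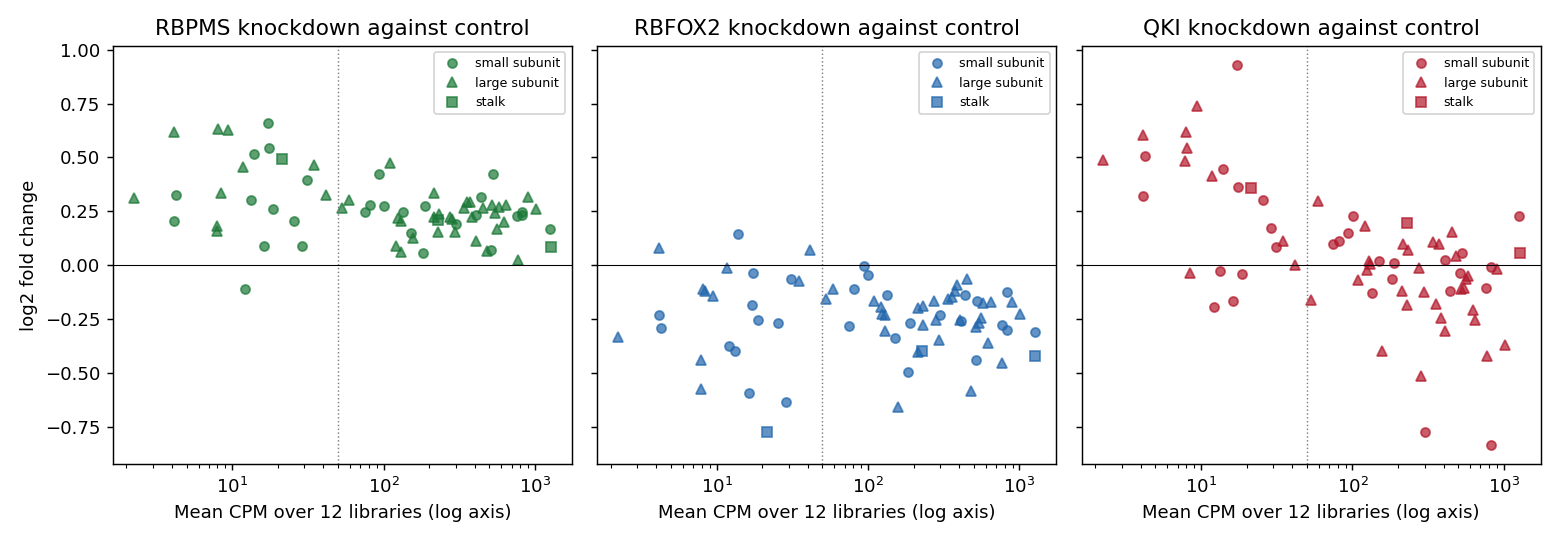
Log2 fold change against control (y axis) by mean CPM over the 12 libraries (x axis, log scale) for the 73 members in each knockdown, with circles for small subunit, triangles for large subunit and squares for stalk genes. After QKI knockdown the members under 50 CPM (dotted line) have a median of 0.36 and the others one of -0.03, while after RBFOX2 knockdown both medians are -0.23.

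Members chosen for their known roles outside or at the edge of the ribosome varied around the family's median. Rpl5 and Rpl11 form the 5S particle with 5S ribosomal RNA and can bind the p53 regulator Mdm2. Rpl5 had 662, 650 and 654 CPM in control, 752, 905 and 731 after RBPMS knockdown, 570, 590 and 588 after RBFOX2 knockdown and 555, 550 and 546 after QKI knockdown. The first was above and the others were below all control libraries, at 0.28, -0.17 and -0.25 (edgeR adjusted p = 3.36e-04, 0.0144 and 6.97e-04), with 0.18 for RBPMS knockdown without replicate 2. For RBFOX2 knockdown the Rpl5 call was lost under library totals and in the normalised table. Rpl11 had 426, 425 and 417 CPM in control and rose after RBPMS knockdown to 479, 570 and 477 (0.27, or 0.18 without replicate 2). After QKI knockdown it measured 482, 479 and 450 CPM (0.15, edgeR adjusted p = 0.0168), a call lost without control replicate 3, QKI knockdown replicate 1 or QKI knockdown replicate 2. The RBFOX2 value of -0.06 did not pass.

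Rpsa, also known as the laminin receptor, was another gene with opposite changes. It had 1210, 1247 and 1225 CPM in control, 1002, 1002 and 972 after RBFOX2 knockdown and 1459, 1430 and 1423 after QKI knockdown, with no overlap in either comparison. The changes were -0.31 ± 0.06 and 0.23 ± 0.06 (edgeR adjusted p = 2.66e-04 and 0.00284). Its RBPMS value of 0.17 (edgeR adjusted p = 0.0222) was 0.06 without replicate 2, where it did not pass, and that call was also lost without control replicate 1 or 3. Rps3, a small subunit protein that also acts in DNA repair, changed by -0.30 after RBFOX2 knockdown and 0.25 after RBPMS knockdown, or 0.16 without replicate 2. After QKI knockdown Rps3 gave -0.01 and did not pass, and its sign turned under library totals (0.08), in the normalised table (0.19) and without QKI knockdown replicate 3 (0.00).

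Rps27a, made as a fusion with ubiquitin, had the lowest value after RBPMS knockdown, the only negative one, where 9 members were negative without replicate 2. It had 13.01, 13.19 and 14.61 CPM in control, 11.41, 14.23 and 12.17 after RBPMS knockdown and 10.98, 10.29 and 10.17 after RBFOX2 knockdown. RBPMS libraries overlapped the control (-0.11, edgeR adjusted p = 0.22, and -0.21 with edgeR adjusted p = 0.00839 without replicate 2). RBFOX2 libraries were all lower (-0.38, edgeR adjusted p = 2.66e-04), and QKI knockdown gave -0.19 (adjusted p = 0.0279), a call lost without control replicate 3 or QKI knockdown replicate 2.

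Rpl10, which joins the large subunit in a late assembly step, had 531, 521 and 523 CPM in control, 615, 686 and 610 after RBPMS knockdown and 427, 441 and 425 after RBFOX2 knockdown. All RBPMS libraries were above and all RBFOX2 libraries below the control, at 0.28 ± 0.04 (0.22 without replicate 2) and -0.28 ± 0.04 (edgeR adjusted p = 9.89e-06 and 7.72e-06). The QKI value of -0.11 (edgeR adjusted p = 0.0221) lost its call without control replicate 1 or QKI knockdown replicate 3. Rpl13a, known for a role in translational silencing after interferon, changed by 0.15 after RBPMS knockdown (0.07 without replicate 2), by -0.28 after RBFOX2 knockdown and by -0.18 after QKI knockdown. The RBPMS call of Rpl13a was lost without control replicate 2 and under library totals.

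Rpl41, Rpl22 and Rpl38 also fell after RBFOX2 knockdown. Rpl41, the shortest ribosomal protein, had 524, 511 and 508 CPM in control and 349, 343 and 337 after RBFOX2 knockdown (-0.59 ± 0.07, edgeR adjusted p = 1.77e-06). Its RBPMS libraries measured 484, 635 and 497 CPM, and the RBPMS value of 0.07 became -0.07 without replicate 2, neither past the test. Rpl22, an RNA-binding protein of the large subunit, had 7.33, 7.71 and 7.15 CPM in control, 5.84, 4.91 and 5.63 after RBFOX2 knockdown and 10.3, 11.2 and 9.54 after QKI knockdown, which gave -0.44 ± 0.09 and 0.48 ± 0.08 (edgeR adjusted p = 3.12e-04 and 7.20e-05). Rpl38, known for its part in the translation of Hox mRNAs, was the member with fewest counts, at 1.94, 1.94 and 2.19 CPM in control and 2.93, 2.69 and 2.90 after QKI knockdown (0.49 ± 0.10). It changed by -0.33 after RBFOX2 knockdown (edgeR adjusted p = 0.0134), a call lost without control replicate 3 or RBFOX2 knockdown replicate 3. The RBPMS call of Rpl38 (0.31, edgeR adjusted p = 0.0167) was lost without replicate 2 and without control replicate 1 or 2.

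Scaling each library to the sum over the members removes the change of that sum, in which the members with most counts weigh most. On this scale RBPMS knockdown gave 16 higher and 8 lower members, against 14.4% higher and 40.7% lower of all genes, and 18 higher and 11 lower without replicate 2, against 20.3% and 37.4%. RBFOX2 knockdown gave 19 higher and 13 lower, against 47.2% and 12.7% of all genes. QKI knockdown gave 35 higher and 10 lower, against 35.6% and 26.0%. The QKI median on this scale was 0.10 for the members and 0.10 for all genes, where TMM gave 0.01 for both. Relative to the other members, Rplp2 had the lowest value after RBFOX2 knockdown (-0.51) and Rps6 after QKI knockdown (-0.74), while Rps20 had the highest after QKI knockdown (1.02). After RBPMS knockdown the highest was Rps20 (0.44), or Rpl32 (0.46) without replicate 2.

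The matched members were also divided by their longest run of C and T within 20 bases of the annotated start, as a description with no test. After RBFOX2 knockdown 32 of 42 members with a run of at least 8 bases and 12 of 16 with a shorter run were lower. Their medians were -0.25 and -0.25, and 30.1% of all genes were lower. After QKI knockdown the 42 had 14 higher and 9 lower with a median of 0.04. The 16 had 3 higher and 6 lower with a median of -0.04, against 32.9% higher and 34.0% lower of all genes.

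Close copies of ribosomal protein genes limit what single members mean. Outside the rule 31 rows carry symbols of such copies, which together took 0.189 to 0.268% of counts in a library. How the authors counted reads that fit several genes is not stated. Rps18l1 measured 439 ± 10.8 CPM in control libraries, while the member Rps18 had a mean of 17.4 CPM over all libraries, so the values of Rps18 are uncertain. After RBFOX2 knockdown Rps18l1 gave -0.18 (edgeR adjusted p = 0.00881) and Rps18 gave -0.04, which did not pass, and after QKI knockdown they gave -0.10, which did not pass, and 0.36. Rps15al4 (203 ± 3.54 CPM), Rps10l1 (162 ± 3.56) and Rpl31l4 (179 ± 1.57) likewise stand beside the members Rps15a, Rps10 and Rpl31. Members with large rises after RBPMS or QKI knockdown also had low counts. Their means over all libraries were 17.2 CPM for Rps20, 9.40 for Rpl7a, 8.09 for Rpl32, 7.93 for Rpl39 and 4.14 for Rpl36a. Low counts were also found among the members that fell most after RBFOX2 knockdown. Those means were 28.9 CPM for Rps29, 21.4 for Rplp2 and 16.3 for Rps12, whereas Rpl12 had 157. Rpl36al, at 119 ± 1.92 CPM in control, gave 0.22 after RBPMS knockdown (0.12 without replicate 2) and 0.23 after QKI knockdown. Whether reads of these members with low counts, rising or falling, were counted in copies was not tested, so their values are uncertain too. The copies named here were chosen after their values were seen.

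Genes that share the fate or the function of ribosomal proteins were followed as lists written from general knowledge. Their counts are to be read against all genes, of which 30.4% were higher and 29.0% lower after RBPMS knockdown, 30.1% and 30.1% after RBFOX2 knockdown and 32.9% and 34.0% after QKI knockdown. Of 11 tested ribosomal proteins with other names and paralogues, 8 were higher and 0 lower after RBPMS knockdown (7 and 0 without replicate 2), 1 higher and 5 lower after RBFOX2 knockdown, and 4 higher and 1 lower after QKI knockdown. Fau, a ribosomal protein made as a fusion with a ubiquitin-like protein, gave -0.19 after RBFOX2 knockdown, past the test. Rpl36al, the paralogue of Rpl36a, gave -0.54 in that comparison and Rpl10l -0.55. Rpl22l1, the paralogue of Rpl22, gave -0.29 after QKI knockdown, where Rpl22 itself rose.

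Translation factors and other genes with TOP mRNAs formed the next list. Of 24 tested, 20 were higher and 0 lower after RBPMS knockdown (18 and 2 without replicate 2), with a median of 0.24 (0.15 without it). After RBFOX2 knockdown 12 were lower and 5 higher, with a median of -0.12, and after QKI knockdown 8 were higher and 5 lower, with a median of 0.04. The elongation factor genes Eef1a1 and Eef1g gave -0.33 and -0.51 after RBFOX2 knockdown, and Tpt1, the translationally controlled tumour protein, gave -0.61. The initiation factor gene Eif3f went the other way, at 0.42.

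Ribosome assembly factors were mostly higher in each knockdown, RBFOX2 knockdown included. Of 40 tested, 29 were higher and 3 lower after RBFOX2 knockdown, with a median of 0.19 where the members had -0.23. They were higher in 37 cases and lower in 0 after RBPMS knockdown, with a median of 0.53 (38, 0 and 0.49 without replicate 2), and higher in 33 and lower in 3 after QKI knockdown, with a median of 0.42. Nle1, Nop2 and Tsr1, which act in subunit maturation, gave 0.64, 0.58 and 0.34 after RBFOX2 knockdown, while Nop10, part of the pseudouridylation complex, gave -0.73. More assembly factors were higher than lower also under library totals and in the normalised table.

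Mitochondrial ribosomal proteins serve a separate ribosome with its own RNA. Of 73 tested mitochondrial ribosomal protein genes, 59 were higher and 0 lower after RBPMS knockdown (56 and 3 without replicate 2), 32 higher and 11 lower after RBFOX2 knockdown and 43 higher and 10 lower after QKI knockdown, with medians of 0.32 (0.25 without replicate 2), 0.10 and 0.25. Of 22 polymerase I factors, 16 were higher and 0 lower after RBPMS knockdown (15 and 2 without replicate 2), 8 higher and 8 lower after RBFOX2 knockdown and 13 higher and 4 lower after QKI knockdown. The shares of polymerase I factors called after RBFOX2 knockdown were near those of all genes.

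**Figure D5:**
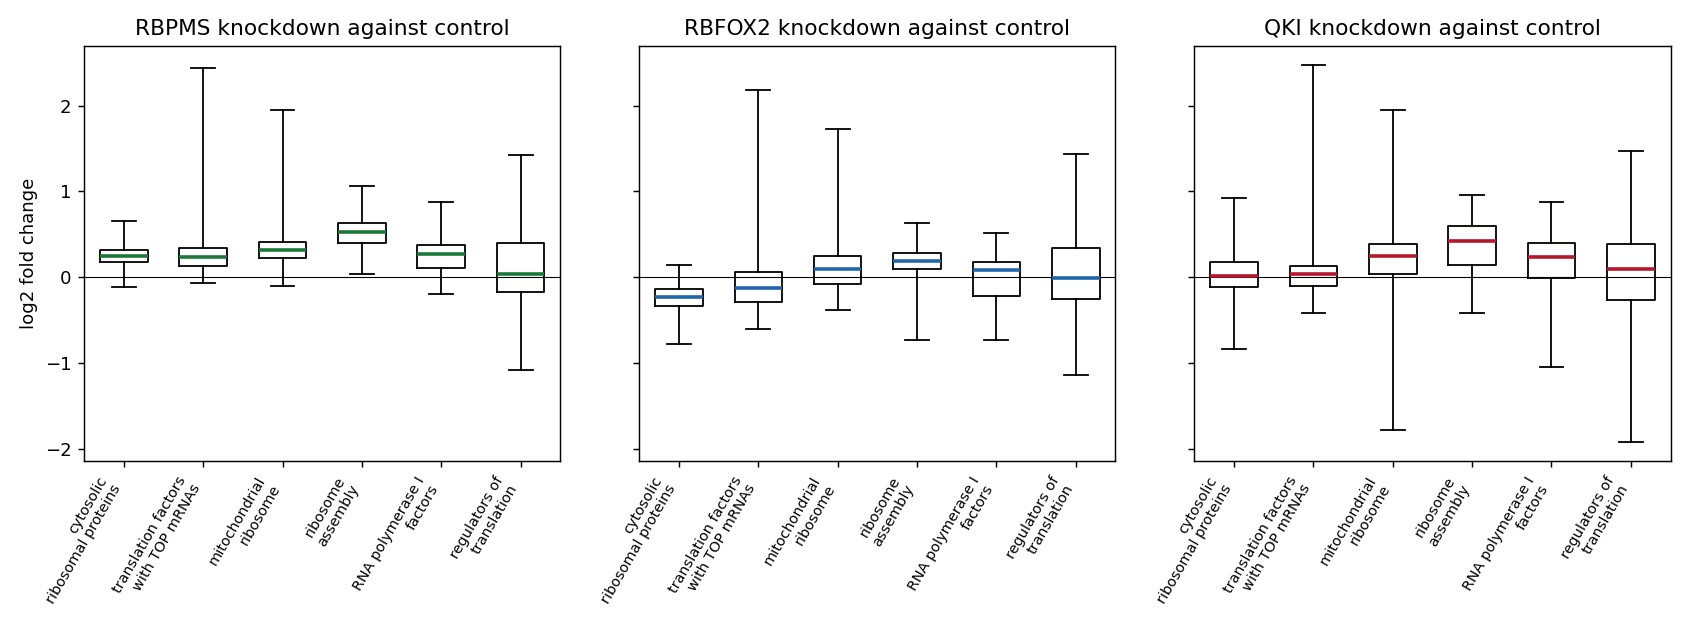
Log2 fold change against control (y axis) of the 73 members and 5 lists of related genes (x axis) in each knockdown; boxes show the quartiles, coloured lines the medians and whiskers the full range over genes. After RBFOX2 knockdown the members have a median of -0.23 and the assembly factors one of 0.19, and after RBPMS knockdown the medians are 0.25 and 0.53 (0.15 and 0.49 without replicate 2, not drawn).

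Regulators of translation and growth were called in both directions, as all genes were. Of 27 tested, 12 were higher and 11 lower after RBPMS knockdown (13 and 11 without replicate 2), 10 and 10 after RBFOX2 knockdown and 13 and 10 after QKI knockdown. Their medians of 0.03 after RBPMS knockdown and -0.01 after RBFOX2 knockdown changed sign under library totals, to -0.01 and 0.04, and the RBPMS median was 0.10 without replicate 2. Rps6kb1, the gene for the S6 kinase that phosphorylates Rps6, fell from 57.0 ± 1.72 CPM in control to 15.03 ± 0.249 after QKI knockdown, a log2 fold change of -1.92 ± 0.04 (edgeR adjusted p = 9.72e-17), in the knockdown where Rps6 itself fell by 0.83. Larp1, the regulator of TOP mRNAs, fell by 0.87 after QKI knockdown and rose by 0.47 (0.50 without replicate 2) and 0.42 after RBPMS and RBFOX2 knockdown. Mtor, the gene of the growth regulator mTOR, gave -0.63 after RBPMS knockdown (-0.53 without replicate 2) and -0.70 after QKI knockdown. After RBFOX2 knockdown Mtor gave 0.03 and did not pass the test. Myc, a transcription factor for ribosome genes, rose by 1.29 after RBPMS knockdown, with or without replicate 2, and 0.78 after RBFOX2 knockdown and gave 0.01 after QKI knockdown. Whether these genes have a part in the members' changes was not tested.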

How the data were processed

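RNA from 12 libraries of PAC1 cells was sequenced in 4 groups of 3. The authors deposited raw counts per gene and a table of normalised signal per gene, which the authors made from the counts by noise filtering with noisyR and quantile normalisation. The submitters' processing notes name FastQC 0.11.2, MultiQC 1.8, STAR 2.5.2a, edgeR 3.28.1, DESeq2 1.30.0 and the build mRatBN7.2. How reads that fit several genes, and strand, were treated is not given in the sources used here. Of the deposited counts from 1 to 19, 68.1% were even, against 50.9% of high values, and halved counts were tried as an alternative; the source of the even values was not tested.

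Groups came from the labels. Counts were filtered by expression (18438 of 33294 genes kept), scaled by TMM and fitted over all 12 libraries with edgeR's quasi-likelihood test (edgeR 4.0.16, limma 3.58.1, R 4.3.3; common dispersion 0.00241), with Benjamini-Hochberg adjustment over all genes tested at 0.05. The standard error is the absolute log2 fold change divided by the square root of F. Depth was 110595399 to 151665474 counts per library, and no molecular identifiers were stated, so counts are of reads. Alternatives were DESeq2 1.42.0, library totals, scaling to the members, other filters, the normalised table on log2(value + 1), 6 libraries only, a replicate block and leaving out each library. The division at 50 CPM and the class, list and fold-limit results without RBPMS knockdown replicate 2 were chosen after seeing the data.

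Named members were the 4 with the largest called change in each direction per comparison with control, those with roles outside the ribosome and the stalk genes, and some that the rule took are not reported here. Single genes outside the members were chosen after their values were seen. Members and lists were chosen with earlier results of these data known. Sequences were taken from RefSeq (GRCr8), a different build from that of the counts, so no coordinates were joined. The fit was tested on simulated data. It called 42% of 100 genes with an absolute log2 fold change of 0.25 and 94% of 100 genes with one of 1. Of 17890 unchanged genes it called 0.0168%. Far fewer genes changed in the simulation than in the data, so these rates do not carry over directly. A member that did not pass the test is not thereby shown to be unchanged.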

Additional observations from a re-analysis of the deposited data

How the results depend on the processing

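The count of members past the test stayed within 1.5 times its value under all alternatives run except scaling to the members, which gave 24 in place of 58 after RBPMS knockdown, 32 in place of 53 after RBFOX2 knockdown and 23 in place of 73 between these knockdowns. That scaling by construction takes out the change in the summed counts of the members. It changed the sign of the log2 fold change of 24 of the 73 members after RBPMS knockdown, of 40 after RBFOX2 knockdown and of 12 after QKI knockdown. Among the members described one by one these were 6 after RBPMS knockdown (Rpl13a -0.062, Rpl22 -0.037, Rpl41 -0.15, Rplp0 -0.13, Rplp1 -0.0090, Rpsa -0.048), 3 after RBFOX2 knockdown (Rpl11 0.20, Rpl5 0.092, Rps6 0.14) and Rps3 after QKI knockdown (0.082). The number of members past an absolute log2 fold change of 1 after QKI knockdown was 0, and 1 under library totals, scaling to the members and the normalised table. The RBFOX2 difference in share was -0.202 percentage points without the 5 members with most counts.

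In the normalised table Rpl41 after RBPMS knockdown was -0.016, Rpl11 and Rps6 after RBFOX2 knockdown 0.016 and 0.00088, and Rps3 after QKI knockdown 0.19. Rps3 was also 0.076 under library totals and 0.025 with a mean of at least 200 counts. Why these small values turned was not tested.

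Leaving out each library in turn gave 53 to 64 members past the test after RBPMS knockdown, 47 to 50 after RBFOX2 knockdown and 31 to 35 after QKI knockdown, and 0 to 1 past a log2 fold change of 1 after QKI knockdown, the 1 being Rps20 without QKI knockdown replicate 3. Rpl41 after RBPMS knockdown ranged from -0.070 to 0.14 and Rps3 after QKI knockdown from -0.022 to 0.0023.

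With a replicate block 58, 54 and 40 members passed the test after RBPMS, RBFOX2 and QKI knockdown, against 58, 53 and 39 without it. Same-numbered libraries had correlations of -0.354 to 0.251 over 18 pairs, and libraries with other numbers -0.334 to 0.416 over 36 pairs. No pairing by number was visible, but values centred within groups of 3 libraries cannot exclude one. DESeq2 or its size factors, halved counts, other filters and 6 libraries only gave 53 to 60, 49 to 60 and 36 to 51, library totals 53, 42 and 42, and the normalised table gave 54, 40 and 43. Without a filter, 45 members passed after QKI knockdown. Depth limits the members under 50 CPM most, where the standard errors are largest.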
